A study of Drosophila melanogaster with 8 samples.

Results

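The genes described here carry sugar through the fly: the enzymes of glycolysis and gluconeogenesis, the first steps of the pentose phosphate and polyol pathways, the enzymes that store and release glycogen and trehalose, and the transporters that move sugars across membranes. They were chosen by name, 32 genes in all, and 31 of them were found under that name among the 15146 genes of each table. The remaining one, GlyS (glycogen synthase), is listed as CG6904, to which it was matched through RefSeq synonyms, and its values are given apart from the counts.

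In glycolysis a hexose is phosphorylated, split and oxidised to pyruvate, with a net yield of ATP and NADH. Gluconeogenesis runs the reverse way and bypasses the irreversible kinase steps with its own enzymes. Insects carry trehalose, a disaccharide of glucose, as the main sugar of their blood. It is made largely in the fat body, where glycogen is also stored, and is split by trehalase in the tissues that take it up. Drosophila embryos are known to switch on the glycolytic enzymes together partway through embryogenesis, ahead of larval growth.

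RNA abundance was measured by sequencing total RNA depleted of ribosomal RNA, in 4 groups of 2 libraries each, all of the laboratory strain w1118. One pair of groups is the sperm of adult males, labelled as spermatozoa, whose food held 30 g/L of sugar (medium) or 300 g/L (high). The other pair is F1 embryos at stage 17, the end of embryogenesis, taken as whole animals and fathered by males on 30 or 300 g/L. The labels leave out the mothers' diet, the type of sugar and the number of animals behind a library.

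Each group has 1 deposited FPKM per gene (fragments per kilobase, relative to sequencing depth, so a level corrected for gene length), so a value below is the authors' combined value of 2 libraries and has no spread beside it. The sequencing depth is unknown. A ratio is high over medium sugar. A gene is called changed where the authors tested it (Cuffdiff) and gave it an adjusted p under 0.05. The embryo and sperm tables were made separately, so levels from both are set side by side and compared by rank or by ratios of members within a group, never tested across. In RNA from whole tissue, fewer cells of a type and less RNA per cell cannot be told apart.

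The tissues were checked against marker genes. The 20 spermatid markers summed to 884 and 2031 FPKM in medium and high sugar sperm and to 7.45 and 5.16 FPKM in the embryo groups. Muscle RNA was abundant in both tables: 23 muscle markers summed to 8432 and 9534 FPKM in embryos and to 5224 and 4850 FPKM in the libraries labelled as spermatozoa. In sperm Act79B, TpnC4, TpnC41C and fln were at 0 on medium sugar and at 0.738, 0, 5.62 and 0.241 FPKM on high sugar. The muscle actin Act88F had 0.669 and 1.24 FPKM there, while Act57B stood at 926 and 943 FPKM. The 13 fat body and oenocyte markers summed to 509 and 206 FPKM in sperm, where Tsf1 alone went from 429 to 107 FPKM and was called. Without it the sums were 80.0 and 99.1 FPKM, with Lsp1alpha, Fbp2, to and Yp3 listed at 0 in both groups. The highest of the rest in sperm were Rfabg (70.4 and 67.4 FPKM) and Cyp4g1 (8.29 and 29.9 FPKM), neither of them called. In embryos the whole list summed to 2531 and 2306 FPKM, of which Rfabg had 2476 and 2253 FPKM. A single gene, CG18628, took 31.1% and 29.4% of all sperm FPKM, and mt:lrRNA, the top gene in embryos, took 10.6% and 9.88% there. Their effect on the FPKM of other genes was not tested.

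No member was called in either tissue. In embryos the authors tested 29 members and called 0, against 0.807% of all tested genes. In sperm they tested 28 and called 0, against 0.341%. By the unadjusted p of the authors' deposited table (Cuffdiff), 0 members were under 0.05 in either tissue, where 3.34% of tested embryo genes and 3.95% of tested sperm genes were. A count of 0 lies near these background shares. In the authors' deposited table the smallest unadjusted p of a member was 0.0914 in embryos (Pepck) and 0.133 in sperm (Gpdh).

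The size of the ratios sets the scale of this result. Among embryo genes with a mean of at least 10 FPKM, 40 were called with a value above 0 in both groups, and the smallest of their folds was 2.08. In sperm 17 such genes were called, from a smallest fold of 2.41. The largest fold of a tested member in either direction was 1.51 in embryos (Sodh-1) and 1.83 in sperm (fbp). Of the 29 members with a mean of 1 FPKM or more in a table, 28 in embryos and 28 in sperm differed by less than 1.5-fold between the diets, the exceptions being Sodh-1 in embryos and fbp in sperm. A p that misses the threshold does not show that the groups were equal, and no interval for a ratio can be given from combined values.

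**Figure D1:**
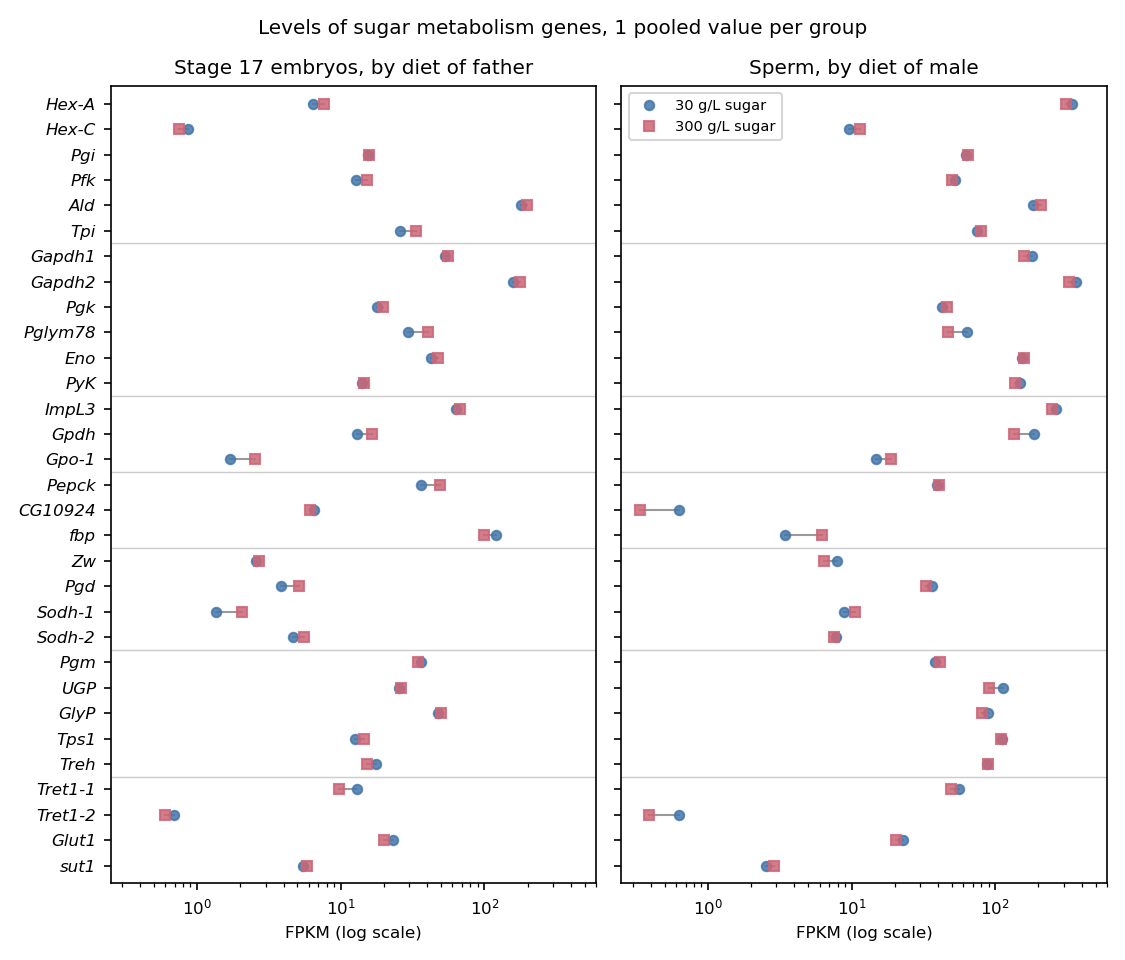
FPKM on a log axis of the 31 genes found by name, in stage 17 embryos (left) and sperm (right); circles are the medium and squares the high sugar group, each 1 combined value of 2 libraries, and grey lines divide the pathway steps. Circle and square of a gene mostly touch, while Hex-A is far higher on the axis in sperm and fbp far lower.

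The entry step of glycolysis is the phosphorylation of glucose by hexokinase. Hex-A, the hexokinase known from flight muscle, lies on X at 9479918 to 9482434 (BDGP5 build). It had 6.45 FPKM in embryos of medium sugar fathers and 7.70 FPKM in those of high sugar fathers (ratio 1.19), position 23 and 22 among the 31 members. In sperm it had 342 and 313 FPKM (ratio 0.916), position 2 in both groups. Its percent rank, the share of genes in a table with a mean at or below its own, was 61.0 among embryo genes and 98.7 among sperm genes. The muscle markers were abundant in both tables, as given above, and their part in the level of Hex-A was not tested. Hex-C, a second hexokinase, was lower in every group, with 0.870 and 0.743 FPKM in embryos, where the authors did not test it, and 9.56 and 11.5 FPKM in sperm. Hex-A thus stood 7.42 and 10.4 times above Hex-C in the embryo groups and 35.7 and 27.2 times above it in the sperm groups.

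The next enzymes rearrange and split the hexose. Pgi, phosphoglucose isomerase, had 15.4 and 15.7 FPKM in embryos and 62.6 and 64.9 FPKM in sperm. Pfk, phosphofructokinase, the committed and most regulated step, had 12.7 and 15.3 FPKM in embryos and 52.1 and 50.1 FPKM in sperm. Hex-A was at 0.507 and 0.502 of the Pfk level in embryos and at 6.56 and 6.25 times the Pfk level in sperm. This ratio was nearly the same on both diets and lay on opposite sides of 1 in the 2 tables.

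Ald, aldolase, was the most abundant member in both embryo groups, at 181 and 198 FPKM, and had 183 and 208 FPKM in sperm. It lies on 3R at 22079791 to 22087313. Tpi, triosephosphate isomerase, had 25.8 and 33.3 FPKM in embryos (ratio 1.29, p = 0.171 in the authors' deposited table) and 74.5 and 79.3 FPKM in sperm.

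In the later steps, where ATP and NADH are made, Gapdh2 was the higher of a pair of glyceraldehyde 3-phosphate dehydrogenases. It had 159 and 178 FPKM in embryos and 367 and 324 FPKM in sperm, where it was the most abundant member of both groups. Gapdh1 had 53.3 and 55.6 FPKM in embryos and 181 and 158 FPKM in sperm. The level of Gapdh2 over Gapdh1 was 2.99 and 3.20 in embryos and 2.03 and 2.05 in sperm. Both copies encode closely related proteins, so reads may be split between them, and their separate values are less certain.

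Pgk, phosphoglycerate kinase, had 18.0 and 19.7 FPKM in embryos and 42.7 and 46.3 FPKM in sperm. Pglym78, phosphoglycerate mutase, lies on 3R at 24973970 to 24977512 and had ratios on opposite sides of 1. It had 29.6 and 40.5 FPKM in embryos (ratio 1.37, p = 0.135 in the authors' deposited table) and 64.0 and 46.9 FPKM in sperm (ratio 0.733, p = 0.246 in the authors' deposited table). Neither was called, and the difference between tissues was not tested. Eno, enolase, had 42.8 and 47.2 FPKM in embryos and 153 and 159.8 FPKM in sperm. PyK, pyruvate kinase, had 14.1 and 14.6 FPKM in embryos, among the lower glycolytic levels there, and 148 and 138 FPKM in sperm.

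Read across the pathway, the embryo levels were lowest at the kinases: Hex-A, Pfk, PyK and Pgk stood with Pgi at 6.45 to 19.7 FPKM over both groups, while Ald and Gapdh2 stood at 159 to 198 FPKM. In sperm the lowest of these enzymes other than Hex-C was Pgk at 42.7 and 46.3 FPKM, and Hex-A was nearly level with Gapdh2 (0.932 and 0.964 of it, against 0.0405 and 0.0433 in embryos).

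In embryos the glycolytic genes other than Hex-C leaned the same way. Hex-C, with a mean of 0.806 FPKM and no test by the authors, had a ratio of 0.854 and is left out here. The other 11 glycolytic members all had ratios above 1, from 1.02 to 1.37. Their median log2 ratio was 0.14 on the scale of FPKM plus 0.1. None passed the test, and the smallest p among them was 0.135 in the authors' deposited table. Over all members with a mean of at least 1 FPKM the median was 0.13 and 23 of 29 lay above 0, where the median of all genes at that mean was -0.04 and 43.1% lay above 0. The 19 muscle markers at that mean also all lay above 0, with a median of 0.21, and the 65 larval cuticle genes had a median of 1.18 with 60 above 0. Their part in the lean of the glycolytic genes was not tested.

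In sperm there was no such lean. Of the same 11 genes 5 lay above 0, with a median of -0.06. Over the 29 members the median was -0.04, with 13 above 0, beside -0.03 and 47.6% for all genes. The muscle markers at 1 FPKM or more had a median of -0.09. The sign of the sperm median turned to 0.04 when ratios were centred on genes at 10 FPKM or more, and to 0.04 without members that share a locus with another gene. Of the 24 members with a mean of 10 FPKM or more in sperm, 24 lay inside the central 90% of genes at that level and 18 inside the central 50%. In embryos the numbers were 20 and 5 of 21, the exception to the first being Tret1-1. Across the 28 members at 1 FPKM or more in both tables, 11 had ratios on the same side of 1, and between their log2 ratios Pearson's r was -0.10 and Spearman's rho 0.10.

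**Figure D2:**
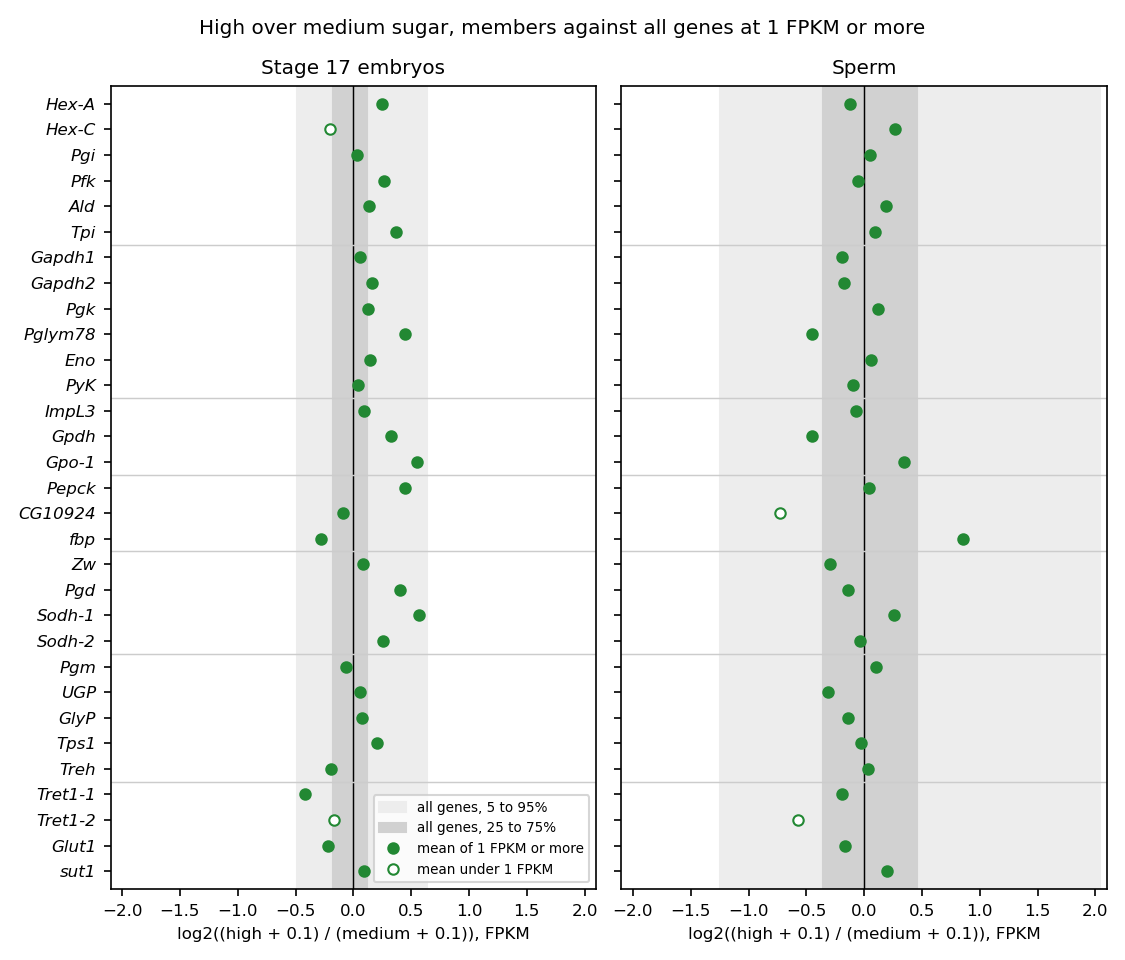
Log2 ratio of high over medium sugar, from FPKM plus 0.1, for each gene in embryos (left) and sperm (right); bands hold the central 50% and 90% of all genes whose mean reached 1 FPKM, and open circles are genes under that mean. Glycolytic genes other than Hex-C lie right of 0 in embryos and on both sides of it in sperm.

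ImpL3, lactate dehydrogenase, regenerates NAD by turning pyruvate into lactate and lies on 3L at 6252592 to 6255793. It had 63.1 and 67.2 FPKM in embryos and 263 and 250.2 FPKM in sperm, position 4 among the members in both embryo groups and 3 in both sperm groups. Gpdh, glycerol 3-phosphate dehydrogenase, which does the same with dihydroxyacetone phosphate, lies on 2L at 5943682 to 5949092. It had 13.1 and 16.4 FPKM in embryos (ratio 1.26) and 185 and 135 FPKM in sperm (ratio 0.730). For the sperm difference the authors' deposited table gives p = 0.133, adjusted p = 0.996.

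Gpo-1, the mitochondrial enzyme that completes the glycerophosphate shuttle with Gpdh, had 1.70 and 2.52 FPKM in embryos (ratio 1.49, p = 0.142 in the authors' deposited table) and 14.8 and 18.8 FPKM in sperm (ratio 1.27). The level of ImpL3 over Gpdh was 4.84 and 4.10 in embryos and 1.42 and 1.85 in sperm. Lactate dehydrogenase was therefore the higher of both NAD-regenerating enzymes in all 4 groups, by more in embryos.

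Of the 3 gluconeogenesis members, fbp and CG10924 ranked lower in the sperm than in the embryo table, and Pepck ranked slightly higher (89.1 in embryos, 92.4 in sperm). fbp, fructose 1,6-bisphosphatase, reverses the Pfk step and lies on 2L at 19761579 to 19764134. It had 121 and 99.8 FPKM in embryos (ratio 0.822, p = 0.289 in the authors' deposited table), position 3 among the members. In sperm it had 3.42 and 6.26 FPKM (ratio 1.83, p = 0.333 in the authors' deposited table), position 28. The level of fbp over Pfk was 9.53 and 6.51 in embryos and 0.0657 and 0.125 in sperm, so the order of these opposed enzymes was reversed between the tables in both diets.

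Pepck, phosphoenolpyruvate carboxykinase, makes phosphoenolpyruvate from oxaloacetate. It had 36.1 and 49.1 FPKM in embryos (ratio 1.36), the member with the smallest embryo p, and 39.4 and 40.5 FPKM in sperm. Its paralog CG10924 had 6.53 and 6.11 FPKM in embryos and 0.627 and 0.338 FPKM in sperm, where it was not tested. Of the 31 members, 28 had a higher percent rank in the sperm than in the embryo table, and the 3 with a lower one were fbp (95.2 and 61.5 in embryo and sperm), CG10924 (58.8 and 33.2) and the transporter sut1 (56.7 and 50.8). More genes stood at 0 in sperm (4687 on medium and 4105 on high sugar) than in embryos (2406 and 2264). The same FPKM can therefore rank higher in sperm. Glut1, with a mean of 21.6 FPKM in embryos and 21.7 FPKM in sperm, ranked 81.1 and 86.7. How much of the higher ranks this accounts for was not tested.

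**Figure D3:**
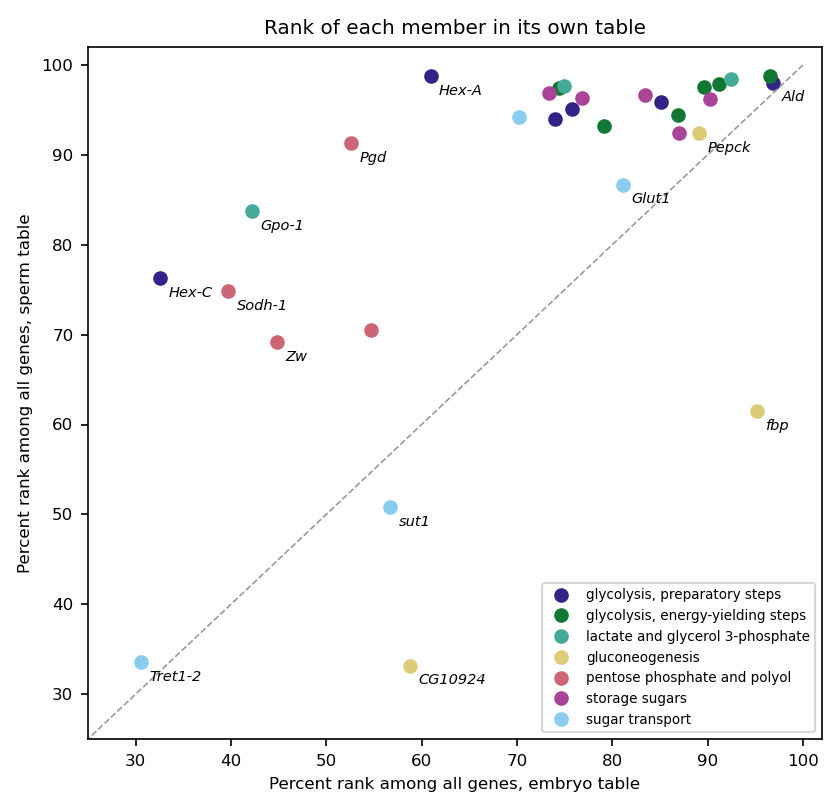
Percent rank of each gene among all 15146 genes of the embryo table (x axis) and of the sperm table (y axis), by its mean over both diets; colours give the pathway group and the dashed line marks equal rank. Most genes lie above the line, 21 of them at or above rank 90 in sperm against 6 in embryos, and fbp and CG10924 lie far below it. More genes stood at 0 in the sperm table, so the same FPKM can rank higher there.

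The oxidative branch of the pentose phosphate pathway, a source of NADPH, was low in embryos. Zw, glucose 6-phosphate dehydrogenase, had 2.55 and 2.72 FPKM in embryos and 7.93 and 6.43 FPKM in sperm. Pgd, 6-phosphogluconate dehydrogenase, the next oxidative enzyme, had 3.87 and 5.15 FPKM in embryos (ratio 1.33) and 36.4 and 33.0 FPKM in sperm. Pgd exceeded Zw in every group, by 1.51 and 1.90 times in embryos and by 4.59 and 5.13 times in sperm.

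The sorbitol dehydrogenases, which link sorbitol to fructose, stood in another order in each table. Sodh-2 had 4.62 and 5.52 FPKM in embryos against 1.36 and 2.06 FPKM for Sodh-1. In sperm Sodh-1 was slightly the higher, with 8.82 and 10.5 FPKM against 7.79 and 7.57 FPKM for Sodh-2. The embryo ratio of Sodh-1, 1.51, was the largest of all tested members there (p = 0.259 in the authors' deposited table) and rests on levels near 2 FPKM. The proteins are closely related, and reads may be split between them.

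Among the genes of storage sugars, Pgm, phosphoglucomutase, links glucose 6-phosphate to glycogen and had 36.0 and 34.4 FPKM in embryos and 38.2 and 41.1 FPKM in sperm. UGP makes UDP-glucose, the donor for both glycogen and trehalose, and had 25.3 and 26.3 FPKM in embryos and 112 and 90.4 FPKM in sperm (ratio 0.804). GlyP, glycogen phosphorylase, which releases glucose units, had 47.6 and 50.2 FPKM in embryos and 89.6 and 81.2 FPKM in sperm. Glycogen synthase (CG6904) had 38.2 and 35.3 FPKM in embryos and 34.9 and 31.3 FPKM in sperm, and was called in neither. GlyP therefore stood above the synthase by 1.25 and 1.42 times in embryos and by 2.57 and 2.60 times in sperm.

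Tps1, trehalose 6-phosphate synthase, had 12.6 and 14.5 FPKM in embryos and 112 and 109.7 FPKM in sperm. Treh, trehalase, had 17.6 and 15.4 FPKM in embryos and 87.1 and 89.1 FPKM in sperm. The synthase was thus at 0.716 and 0.943 of trehalase in embryos and at 1.28 and 1.23 times it in sperm. Within sperm, both were among the most even of the members between diets, with ratios of 0.983 and 1.02.

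Sugar transporters had the lowest median log2 ratio of the pathway groups in embryos, -0.22, with 1 of 3 members at 1 FPKM or more above 0. Gluconeogenesis members also had 1 of 3 above 0, with a median of -0.09. On the wider list of the sugar transporter family 5 of 11 lay above 0, with a median of -0.07. Tret1-1, a trehalose transporter, had 13.0 and 9.70 FPKM in embryos (ratio 0.745, p = 0.254 in the authors' deposited table), the lowest ratio of the tested embryo members, and 56.3 and 49.2 FPKM in sperm. Its paralog Tret1-2 stayed below 1 FPKM in all 4 groups (0.691 and 0.603 in embryos, 0.626 and 0.389 in sperm) and was not tested. Both share 1 locus in the tables, as do 13 of the 31 members with some other gene, and values of overlapping or near-identical genes are less certain.

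Glut1, a glucose transporter, had FPKM values of 23.3 and 19.99 in embryos and 22.9 and 20.4 in sperm, with ratios of 0.858 and 0.892. It lies on 3L at 914074 to 992473. sut1, of the sugar transporter family, had 5.47 and 5.84 FPKM in embryos and 2.52 and 2.89 FPKM in sperm, where it was not tested. Tret1-1 was thus at 0.559 and 0.485 of Glut1 in embryos and at 2.46 and 2.41 times Glut1 in sperm.

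The order of the members' levels was nearly the same on both diets. Spearman's rho of FPKM between medium and high sugar over the 31 members was 0.994 in embryos and 0.991 in sperm, while between the embryo and sperm tables it was 0.577 on medium and 0.580 on high sugar. These values describe genes that share libraries and are not independent replicates.

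At 11 steps the fly genome holds paralogs of these enzymes, 17 genes on the lists used here, many of them known for expression in the testis. In embryos 15 of the 17 had a mean under 1 FPKM. In sperm, 16 of the 17 were higher in the high sugar group, with a median log2 ratio of 1.26, while the members at the same steps had ratios of 0.730 to 1.27. Of all sperm genes with a mean of 1 FPKM or more, 47.6% lay above 0. None of the 13 tested paralogs was called, beside 0.341% of all tested sperm genes. An unadjusted p under 0.05 in the authors' deposited table was held by 6 of the 13, beside 3.95% of all tested sperm genes. The aldolase paralog CG5432, on 3R at 22239810 to 22241914, had 8.03 and 27.2 FPKM (p = 0.00115, adjusted p = 0.116 in the authors' deposited table).

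These paralogs were named after their values were seen. Their sums per step had ratios of 1.33 to 5.01, all above those of the members. The paralogs' share of the FPKM at their step was therefore larger on high sugar at all 11 steps, which restates the ratios and is no separate result. It went from 4.20% to 11.5% for aldolase, from 2.92% to 6.89% for hexokinase (Hex-t1 and Hex-t2 beside Hex-A and Hex-C) and from 14.4% to 26.6% for pyruvate kinase. For glucose 6-phosphate dehydrogenase it went from 20.7% to 54.0%, since CG7140 had 2.07 and 7.56 FPKM beside 7.93 and 6.43 FPKM for Zw. For phosphoglycerate mutase it went from 31.3% to 45.8%, where the member Pglym78 had a ratio of 0.733. Some shares rest on low paralogs that were not tested. They were 0.128% and 0.670% for lactate dehydrogenase (CG13334, 0.337 and 1.69 FPKM) and 3.52% and 4.27% for phosphoglycerate kinase (CG9961, 1.56 and 2.07 FPKM). For glycerol 3-phosphate dehydrogenase they were 0.481% and 2.81% (CG3215, 0.894 and 3.91 FPKM). Of the hexokinase paralogs, Hex-t1 (1.05 and 2.20 FPKM) was not tested either. The trehalase paralog CG6262 had 10.6 and 25.6 FPKM (p = 0.00655, adjusted p = 0.416 in the authors' deposited table), a share of 10.9% and 22.3%. All 20 spermatid markers were higher in the high sugar group, with a median log2 ratio of 1.27. Of the 19 tested, 3 were called, beside 0.341% of all tested sperm genes. The 13 accessory gland and ejaculatory duct markers whose mean reached 1 FPKM had a median of 1.32 with 10 above 0, and the list summed to 678 and 1311 FPKM, with Dup99B called (254 and 778 FPKM). The part of either marker list in the paralogs' values was not tested.

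**Figure D4:**
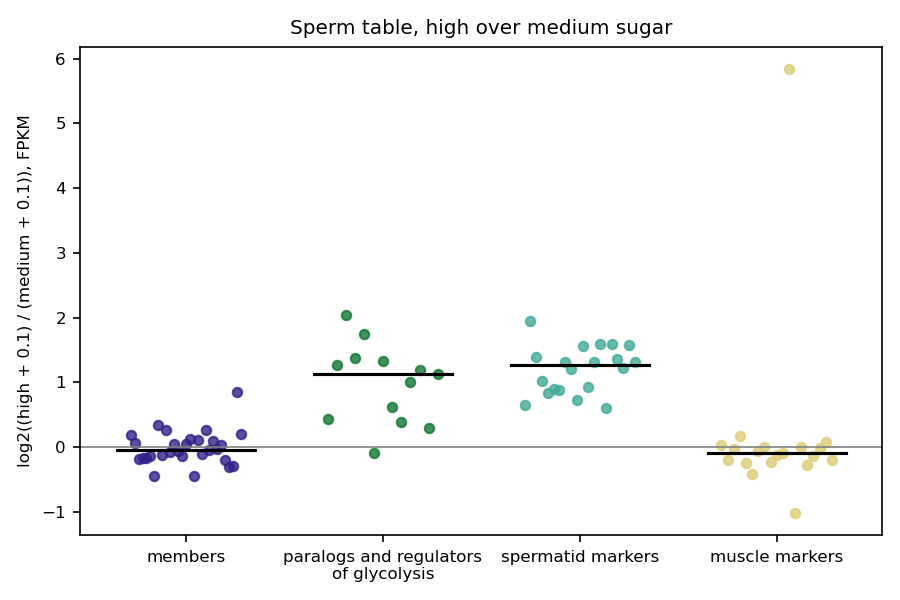
Log2 ratio of high over medium sugar in sperm, from FPKM plus 0.1, for genes whose mean reached 1 FPKM; each point is a gene and each bar a median. The 29 members centre on -0.04 and the muscle markers on -0.09, apart from TpnC41C, which was listed at 0 on medium sugar, while the list of paralogs and regulators of glycolysis and the spermatid markers centre on 1.13 and 1.27.

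On the 6 lists of further genes of these pathways, which include the 17 paralogs, none was called in either tissue. By the unadjusted p of the authors' deposited table, 1 of 53 tested genes was under 0.05 in embryos, beside 3.34% of all tested genes, and 6 of 62 were in sperm, beside 3.95%. Those 6 sperm genes were the same 6 paralogs counted above. The embryo gene was CG1208, of the sugar transporter family, with 1.58 and 4.27 FPKM (p = 0.0038, adjusted p = 0.295 in the authors' deposited table). In sperm it had 0.657 and 0.544 FPKM and was not tested. The lists differed in embryos by the genes at 1 FPKM or more that lay above 0. There were 0 of 3 on the list of paralogs and regulators (median -0.14) and 3 of 5 on the pentose phosphate list. The glycogen and trehalose list had 6 of 11, the sugar transporter family 5 of 11 (median -0.07) and the polyol, galactose, hexosamine and glycerol list 7 of 11. On the list of pyruvate entry and malic enzyme all 11 lay above 0, with a median of 0.15, and 4 of 12 did in sperm. Its most abundant embryo genes were CG14290, a mitochondrial pyruvate carrier subunit (44.3 and 49.1 FPKM), and CG11876, a pyruvate dehydrogenase subunit (44.2 and 48.6 FPKM). In sperm they were CG1516, pyruvate carboxylase (127 and 125 FPKM), and the malic enzyme Men (72.7 and 68.8 FPKM).

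The highest levels around the pathway belonged to trehalose phosphatase genes in embryos and to a transporter in sperm. CG5171 and CG5177, neighbours on 2L annotated as trehalose phosphatases, had 884 and 707 FPKM and 437 and 468 FPKM in embryos, against 28.5 and 15.0 FPKM and 234 and 183 FPKM in sperm. The sugar transporter gene CG10960 had 38.9 and 37.0 FPKM in embryos and 424 and 359.6 FPKM in sperm, above Tret1-1 and Glut1 in every group. CG33281, of the same family, had 1.21 and 2.39 FPKM in embryos and 190.4 and 136 FPKM in sperm, and slv, a sugar transporter gene and the next highest in embryos, had 18.6 and 12.7 FPKM there. Glycogenin, the primer of glycogen synthesis, had 71.2 and 71.6 FPKM in sperm.

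On the pentose phosphate list CG30499 (26.8 and 21.9 FPKM) and transaldolase, listed as Tal (28.5 and 31.2 FPKM), were highest in embryos, and the transketolase CG8036 (76.9 and 87.4 FPKM) and Tal (39.0 and 50.4 FPKM) in sperm. On the list of polyol, galactose, hexosamine and glycerol genes, Gfat1, the first enzyme of hexosamine synthesis, had 174 and 216 FPKM in embryos and 53.3 and 44.5 FPKM in sperm, and CG6084, an aldose reductase relative, had 167 and 166 FPKM in embryos and 259 and 239 FPKM in sperm. Galk, galactokinase, had 53.9 and 58.0 FPKM in sperm. On the list of paralogs and regulators, CG7362 (6.42 and 5.81 FPKM) and Pfrx (2.20 and 2.07 FPKM), which sets the level of the Pfk activator fructose 2,6-bisphosphate, were highest in embryos. CG7059 (19.2 and 18.0 FPKM) and CG5432 were highest in sperm.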

How the data were processed

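The deposited data are a table of embryos and a table of sperm, told apart by their names and by marker genes. Per the file headers the values are FPKM, 1 per group, that is, the authors' combined value of 2 libraries, and the p-value and its adjusted form are the authors' own test per gene. The submitters' processing notes name TopHat2 (2.0.8), Cuffdiff (2.1.1) and the build BDGP5. For the annotation, the options and the scaling, the sources used here say nothing. Unused columns of per-sample values numbered 0.

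Members were matched by gene name in both tables. Calls are those of the authors at an adjusted p under 0.05 among tested genes. No test was refitted, since values per library were not used. The labels do not say that replicate libraries are from separate crosses or cultures, so the authors' p-values may measure a technical spread. A pseudocount of 0.1 FPKM was added before log2 ratios were taken, so changes of low genes are understated, and medians use genes with a mean of 1 FPKM or more. The start of a locus was raised by 1, as the tables count from 0. Named genes are all members, and from each of 6 pathway lists the called genes or else the 2 with the highest mean in each tissue. CG1208 and the paralogs beside members were named after their values were seen. CG numbers were matched through RefSeq and 5 list entries that were synonyms or another gene were dropped. Members and lists were chosen with earlier results of these data known. Calculations used Python 3.11.15, pandas 2.3.3 and numpy 2.4.6, and the code was tested on simulated data.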

Additional observations from a re-analysis of the deposited data

How the results depend on the processing

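The count of called members was 0 in both tissues at adjusted p thresholds of 0.01 and 0.1, with the adjustment recomputed over tested genes, at an unadjusted p under 0.05, with a minimum absolute log2 ratio of 1, and with CG6904 counted as GlyS. The embryo median log2 ratio of 0.126 stayed above 0: it was 0.120 with a pseudocount of 1, 0.0928 over all members and likewise over those at 5 FPKM or more, 0.163 when centred on genes at 10 FPKM or more, 0.109 with CG6904 and 0.113 without members that share a locus. The sperm median of -0.0396 was -0.0578 over all members and over those at 5 FPKM or more and -0.0487 with CG6904. It turned to 0.0407 when centred and to 0.0386 without members that share a locus; the cause of the latter was not tested. Centring, by -0.04 in embryos and -0.08 in sperm, adds a constant to every log2 ratio and turned 4 of 62 single-member values, all in sperm: Pfk (0.0225), ImpL3 (0.00869), Tps1 (0.0555) and Sodh-2 (0.0407). The settings with CG6904 and without shared loci were chosen after seeing the data.

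Recomputed from the deposited p-values, 16 of the 22 sperm calls remained under the threshold, and Dup99B was not among them. No paired analysis was possible because the tables hold 1 combined value per group, and for the same reason no fit without a replicate was run. Depth is unknown, so low genes such as Tret1-2 and CG10924 have no floor, and the 3 sperm and 2 embryo members that the authors did not test have no p-value.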
